A study of Mus musculus with 223 samples.

Results

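Cnr1 encodes the cannabinoid receptor CB1, and it was examined here with 7 genes of the endocannabinoid pathway in single Htr3a-GFP+ interneurons (INs) of the developing mouse cortex. The 8 genes are Cnr1, Cnrip1, Dagla, Daglb, Mgll, Napepld, Faah and Abhd6, out of 43629 genes in the count table, and all 8 were found by symbol. The set was selected on measured values, because Cnr1 was picked for its high level in type 2 INs of these same cells. The types themselves came from the authors' clustering of these same cells. The differences between types are therefore given as a description with no test.

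The cells came from transgenic Htr3a-GFP mice on a C57BL/6 background, of both sexes, which carry green fluorescent protein under regulatory sequences of the serotonin receptor gene Htr3a. The reporter thus marks the cells in which that sequence is active, and no other allele or treatment is stated. Cortices were pooled at each of 3 ages, GFP+ cells were sorted, and single cells were sequenced, 82 at embryonic day 18 (E18), 66 at postnatal day 2 (P2) and 75 at P5. The authors assigned the P2 cells to type 1 (22 cells), type 2 (31 cells) and type 3 (13 cells), and the P5 cells to the same types (34, 19 and 22 cells). The E18 cells carry no type. Animals were pooled at each age, and the methods name a single capture chip for P2 and more than 1 chip for E18 and P5. The labels tie no cell to an animal, a pool or a chip, so each group counts as 1 sample and there are no replicates. Enzyme digestion was warmer and shorter at E18 and P2 than at P5, which cannot be told apart from age.

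Endocannabinoids are lipids made on demand in the membrane of a neuron. The main one, 2-arachidonoylglycerol (2-AG), is made by the diacylglycerol lipases DAGLα and DAGLβ (Dagla, Daglb) and is broken down by the hydrolases MGLL and ABHD6. The other, anandamide, can be made by the phospholipase NAPE-PLD (Napepld) and is broken down by FAAH. Both act on CB1, a receptor coupled to inhibitory G proteins that is best known in the adult cortex from basket cells that contain cholecystokinin, where it lowers GABA release. In the developing brain the same receptor is known for roles in the migration of INs and the growth of their axons. CNRIP1 is a protein that binds the tail of CB1.

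Levels are in RPM, the read pairs of a gene scaled to a fixed number of mapped read pairs per cell. A group's pooled RPM is its summed read pairs over its summed mapped read pairs, so it does not tell apart more cells with the transcript from more transcript per cell. Mapped read pairs per cell ranged from 3707601 to 15840130 with a median of 9463033, and 10 RPM, the threshold above which a cell is counted, is therefore many read pairs in every cell. Type 3 INs had fewer read pairs on genes, with a median of 2802948 at P2 and 2620272 at P5 against 5089096 over all cells. GABAergic markers were present, since 1 or more of Dlx1, Dlx2, Dlx5, Dlx6, Gad1 and Gad2 exceeded 10 RPM in 78 of 82 E18 cells, 62 of 66 P2 cells and 75 of 75 P5 cells. Htr3a itself exceeded 10 RPM in 62 of 82 E18 cells, 51 of 66 P2 cells and 63 of 75 P5 cells. Transcripts of other cells were also found. At E18, 12 cells had 3 or more of 6 excitatory neuron genes above 10 RPM, and 15 had 3 or more of the 4 genes Lhx6, Sst, Nkx2-1 and Sox6 of INs from the medial ganglionic eminence (MGE). Among the 19 type 2 cells at P5, 3 were above 10 RPM for the astrocyte genes Gfap and Aldoc, and 1 other had 3 or more of 5 oligodendrocyte lineage genes. Among the type 2 cells at P2, 3 also had 3 or more of those MGE genes. At least 1 MGE gene exceeded 10 RPM in 63 of 82 E18 cells, whose summed MGE level had a median of 312 RPM, against medians of at most 2.50 RPM in the postnatal groups. The cell names in the labels start with 1 of 4 number prefixes, which are called library sets A to D here, and what a prefix stands for is not stated. Set A holds all P2 cells, and the E18 and P5 cells fall in sets B, C and D.

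Cnr1 lies on chromosome 4 (GRCm38, 33924593 to 33948831, plus strand), with 6.44 kb of exon and no overlapping gene. It was highest in type 2 INs at both postnatal ages, with a pooled level of 3177 RPM at P2 and 3737 RPM at P5. Type 3 INs followed with 781 and 1519 RPM, E18 cells with 653 RPM and type 1 INs with 503 and 291 RPM. As a mean of log2(RPM + 1), which weights low cells more, the order at P5 was different, with 9.93 in type 3, 9.60 in type 2 and 5.21 in type 1 INs, while at P2 it was 9.16 in type 2, 6.07 in type 3 and 3.56 in type 1 INs. The exact 95% Poisson intervals are narrow, for example from 3728 to 3746 RPM in type 2 at P5, and they cover counting error only, since PCR reads without molecular identifiers are not independent molecules.

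Within each group the cells spread widely. At E18 the levels ran from 0 to 5853 RPM with a median of 71.3 RPM, and 10 of 82 cells had no Cnr1 read pair. In type 1 INs at P2 they ran from 0.21 to 6171 RPM, yet the median was 1.03 RPM. The range in type 2 INs at P2 was 0 to 11007 RPM with a median of 2299 RPM. Most type 1 cells at P2 thus sat below 10 RPM, while most type 2 cells of the same age were above 288.8 RPM, the lower quartile. Type 3 INs at P2 ran from 0.43 to 4125 RPM with a median of 164.9 RPM.

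At P5 the lowest cells of types 2 and 3 were higher than at P2. All P2 cells are in set A and no P5 cell is, so age cannot be told apart from library set. Type 1 INs at P5 still ran from 0 to 1737 RPM with a median of 31.6 RPM. Type 2 INs ran from 21.5 to 19723 RPM with a median of 2710.3 RPM and a lower quartile of 68.8 RPM. Type 3 INs ran from 83.1 to 4439.6 RPM with a median of 894 RPM and a lower quartile of 603.3 RPM. No type 2 or type 3 cell at P5 lay below 10 RPM, whereas 12 of the 34 type 1 cells did not exceed it. The ranges of all 3 types overlapped at both ages.

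**Figure D1:**
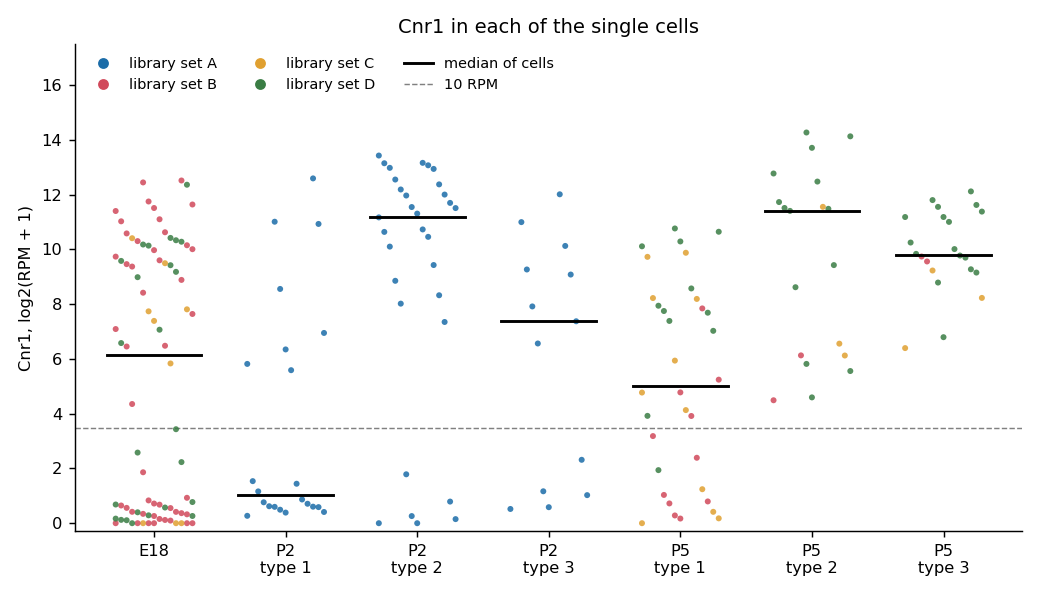
Cnr1 as log2(RPM + 1) in each cell, by age and type, with the library set as colour, the median of each group as a bar and 10 RPM as a dashed line. Cells fall into a low and a high band at E18 and P2. All 19 type 2 and 22 type 3 cells at P5 lie above the line. Their lower quartiles are 68.8 RPM in type 2 and 603.3 RPM in type 3.

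The share of cells above 10 RPM was 52.4% at E18 (95% exact binomial interval, 41.1 to 63.6%). It was 36.4% (17.2 to 59.3%) in type 1 INs, 80.6% (62.5 to 92.5%) in type 2 INs and 61.5% (31.6 to 86.1%) in type 3 INs at P2. At P5 it was 64.7% (46.5 to 80.3%) in type 1, 100% (82.4 to 100%) in type 2 and 100% (84.6 to 100%) in type 3. The type 1 share at P5 differed between library sets, with 4 of 11 cells in set B, 7 of 11 in set C and 11 of 12 in set D. The order of the types at P2 depends on the threshold, since 1 read pair or more was found in all 22 type 1 and 13 type 3 cells but in 29 of 31 type 2 cells. Few cells lay near 10 RPM. Between 5 and 20 RPM there were 2 cells at E18, none at P2 and 4 at P5, all 4 of type 1. The highest cell held 56.5% of the Cnr1 read pairs of type 1 INs at P2 and 51.02% of those of type 3 INs at P2, against 20.8% in type 2 INs at P5. Without the highest cell of each group the levels were 3083 RPM in type 2 at P5, 2922 RPM in type 2 at P2 and 1361 RPM in type 3 at P5, in the same order as before. The other groups changed places, with 600.1 RPM at E18, 423 RPM in type 3 at P2, 236 RPM in type 1 at P5 and 229 RPM in type 1 at P2. Single cells thus set the order among those 4 groups.

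Set against the other types of its age, with 1 RPM added to both sides, Cnr1 was higher in type 2 INs by 2.45 on the log2 scale at P2 and by 2.41 at P5, which are ratios of 5.49 and 5.33 in pooled RPM. It was lower in type 1 INs, at -2.40 and -3.19. In type 3 INs it was lower at P2, at -1.39, although not past 1 with TMM (-0.85) or DESeq2 size factors (-0.54) or as a difference of mean log2(RPM + 1) (-0.76). At P5 the pooled value of type 3 INs was 0.03, but it was 0.78 with total counts on genes and 3.15 as a difference of mean log2(RPM + 1), and ranged from -0.71 to 4.42 within the library sets. The type 3 values stand against a median over all tested genes of -1.26 at P2 and -0.78 at P5, so at P2 Cnr1 in type 3 INs lay near the middle of all genes. The medians for type 1 and type 2 were -0.25 and 0.19 at P2 and 0.04 and 0.03 at P5.

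At P5 the type 2 level differed between library sets. In set D the 14 type 2 cells had a pooled Cnr1 of 5062 RPM, from 23.2 to 19723 RPM. In set C the 3 type 2 cells were at 68.7, 93.1 and 3003 RPM. In set B the 2 type 2 cells were at 21.46 and 68.95 RPM, and the second of these is the cell with oligodendrocyte lineage genes, among them Pdgfra at 1814 RPM. The type 2 fold was accordingly 2.17 within set C and 2.06 within set D but -1.70 within set B. The set C value rested on the cell at 3003 RPM. Its other type 2 cells lay below the set C levels of type 1 (229 RPM) and type 3 (349 RPM). Type 1 INs showed the same order of sets, with 36.2, 229 and 580.3 RPM in sets B, C and D. In E18 cells the order was different, at 792, 297 and 497 RPM. Type 3 INs at P5 had 798 RPM in set B (2 cells), 349 RPM in set C (3 cells) and 1771 RPM in set D (17 cells). What a library set stands for is not stated, and its part in these levels was not tested.

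The 3 type 2 cells with Gfap and Aldoc were at 46.1, 392 and 687 RPM for Cnr1, all below the type 2 median, and held 1.56% of the Cnr1 read pairs of type 2 INs at P5. Without them the type 2 level was 4415 RPM and the fold 2.65. With the oligodendrocyte lineage cell also left out, 15 cells remained and the fold was 2.73. At P2 the 3 type 2 cells with MGE genes were at 0, 2.45 and 319 RPM for Cnr1, and without them the type 2 fold was 2.61.

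Across age, the pooled level was 653 RPM at E18 and 1496 RPM over all P5 cells, a log2 difference of 1.20, and the share of cells above 10 RPM was 52.4 and 84%. Type 2 INs at P5 stood 2.52 above the E18 cells, which is no change within a type, as E18 cells have none. Within set D the difference of all P5 cells from E18 was 2.32 and within set C it was 0.48, while within set B P5 cells were lower, at -2.84. The values without the doubtful E18 cells were smaller. Without the 12 cells with excitatory neuron genes the difference was 1.07, and without the 15 cells with MGE genes it was 1.00. The cells of set B thus went against the direction of the pooled value. The mix of types also differed between sets, as 11 of 15 P5 cells in set B, 11 of 17 in set C and 12 of 43 in set D were type 1 INs, in which Cnr1 was lowest. The part of this mix, and of the MGE transcripts that were more widespread at E18, in the difference was not tested.

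Cnrip1, which encodes the protein bound to the tail of CB1, lies on chromosome 11 (17051586 to 17079371, plus strand). It shares a short stretch of exon with Plek on the opposite strand, and reads there cannot be told apart, as the libraries do not mark strand. Cnrip1 was at 66.98 RPM at E18 and at 40.4, 48.5 and 13.7 RPM in types 1, 2 and 3 at P2. At P5 it was at 83.8, 67.04 and 28.4 RPM. The level of type 3 INs at P2 came from 1 cell at 152.9 RPM and was 0.03 RPM without it.

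Unlike the pooled level, the share of cells with Cnrip1 above 10 RPM was highest in type 2 INs at P5, where 14 of 19 cells (73.7%, 48.8 to 90.9%) exceeded it. There the cells ran from 0 to 268 RPM with a median of 29.4 RPM. In type 1 INs 14 of 34 cells (41.2%, 24.6 to 59.3%) and in type 3 INs 7 of 22 cells (31.8%, 13.9 to 54.9%) did, and the interval of type 2 overlaps those of types 1 and 3. Of the 14 type 2 cells 4 lay between 10 and 20 RPM, and 3 were the cells with Gfap and Aldoc, without which 11 of 16 (68.8%) exceeded 10 RPM. Above 50 RPM the shares were closer, at 42.1% in type 2, 32.4% in type 1 and 18.2% in type 3 INs. The higher pooled level of type 1 INs came from a smaller share of cells, up to 622 RPM with a median of 1.08 RPM. At P2 the shares were lower, with 4 of 22, 8 of 31 and 1 of 13 cells, and at E18 29 of 82 cells exceeded 10 RPM.

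**Figure D2:**
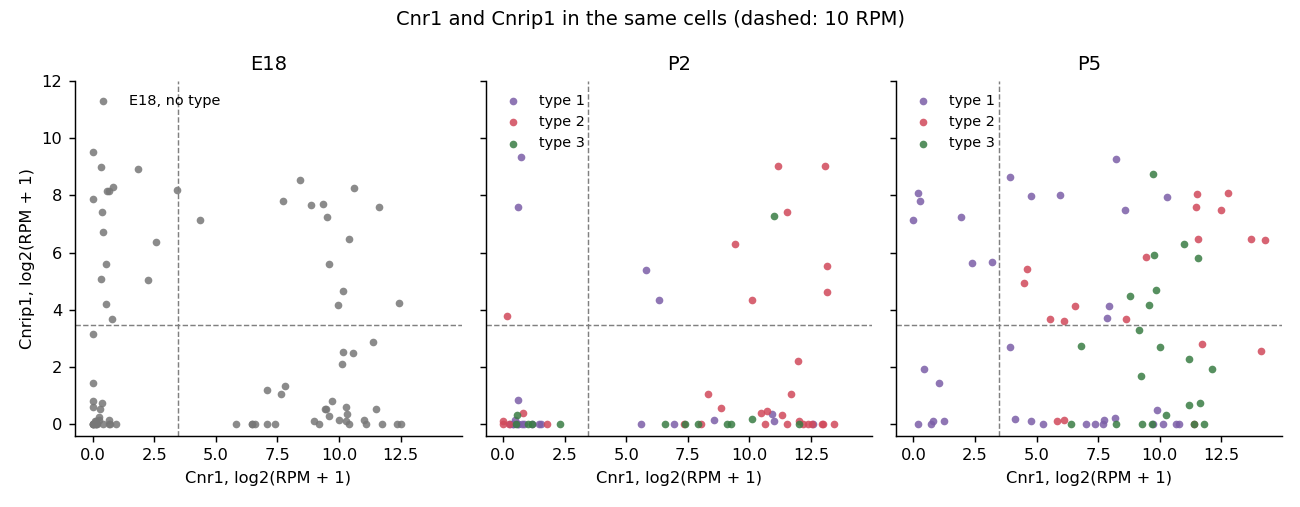
Cnr1 (horizontal) and Cnrip1 (vertical) as log2(RPM + 1) in the same cells at E18, P2 and P5, coloured by type, with dashed lines at 10 RPM. At P5 the type 2 and type 3 cells sit to the right of the line for Cnr1, and 14 of the 19 type 2 cells lie above both lines.

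Cnr1 and Cnrip1 were both above 10 RPM in 13 of 82 cells at E18, 10 of 66 at P2 and 29 of 75 at P5. Another 16 cells at E18 had Cnrip1 without Cnr1, as did 3 cells at P2 and 6 at P5, and all 6 at P5 were of type 1. Over cells the correlation of their log2 levels was weak, with a Pearson r of -0.06 over 82 E18 cells, 0.17 over 66 P2 cells and 0.02 over 75 P5 cells. The cells come from pooled animals and differ in depth. The other 6 genes were as weakly related to Cnr1, from -0.27 to 0.20 at these ages.

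The enzymes of the pathway were detected in few cells. None of the 6 enzyme genes exceeded 10 RPM in 60.5% of all cells, while 73 cells had 1, 13 had 2 and 2 had 3 or more. At least 1 enzyme was found in 38 of 82 cells at E18, 22 of 66 at P2 and 28 of 75 at P5, and in type 2 INs at P5 in 10 of 19 (52.6%). A synthesis enzyme exceeded 10 RPM in 57 cells, a hydrolase in 44 and both kinds in 13. Among the cells above 10 RPM for Cnr1, 60 also had an enzyme and 87 did not, and 28 cells had an enzyme without Cnr1. Per kb of exon, Cnr1 had the highest pooled level of the 8 genes in all 7 groups. In type 2 INs at P5 it reached 579.9 RPM per kb, against 16.7 for Cnrip1, 16.6 for Mgll, 14.5 for Abhd6, 7.59 for Faah, 0.69 for Dagla and 0.33 for Daglb.

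**Figure D3:**
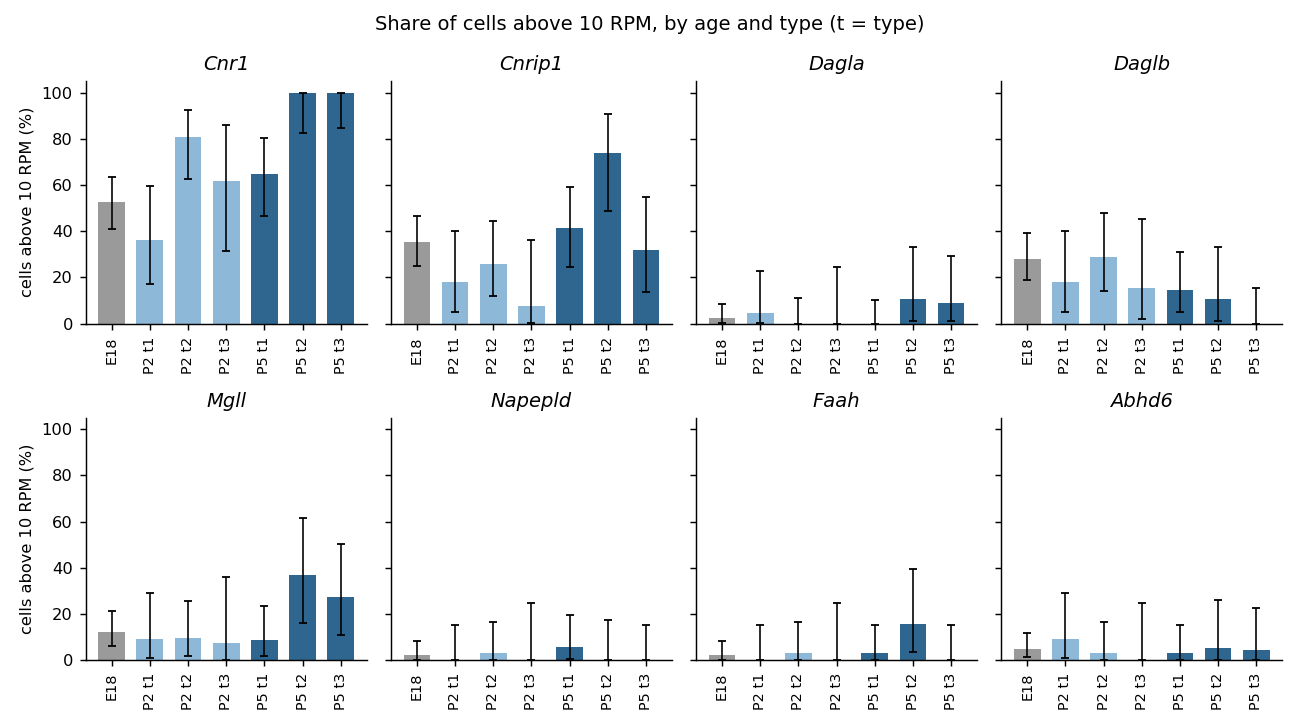
Share of cells above 10 RPM for each of the 8 genes by age and type, as bars with exact 95% binomial intervals (counting error only). Cnr1 reaches 100% in types 2 and 3 at P5 and Cnrip1 73.7% in type 2 at P5, while Dagla, Napepld, Faah and Abhd6 stay at or below 15.8% in each group.

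Among the synthesis enzymes, Daglb was the more frequent of the diacylglycerol lipases. It lies on chromosome 5 (143464584 to 143505942, plus strand) and shares 2309 exon bases with Rac1 on the opposite strand, whose own pooled level ranged from 27.7 RPM in type 3 at P5 to 401 RPM in type 3 at P2. Daglb was at 40.4 RPM at E18, where cells ran from 0 to 712 RPM, the median was 0 and 23 of 82 cells exceeded 10 RPM. At P2 it was at 6.71 RPM in type 1, 43.8 RPM in type 2 and 8.34 RPM in type 3, with 4 of 22, 9 of 31 and 2 of 13 cells above 10 RPM. At P5 it was at 17.6 RPM in type 1, 3.14 RPM in type 2 and 0.03 RPM in type 3, with 5 of 34, 2 of 19 and 0 of 22 cells. These 2 type 2 cells include, at 17.8 RPM, the cell with oligodendrocyte lineage genes. Daglb thus led in E18 cells and type 2 INs at P2 and was lowest in type 3 INs at P5, where 0 of 22 cells allows a share of up to 13.6% by 3 cells (15.4% by the exact interval).

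From E18 to all P5 cells Daglb was lower by a log2 difference of -1.98, with 28.0 against 9.33% of cells above 10 RPM. The direction held in sets B and D, at -0.41 and -4.08, and was opposite in set C, at 0.97, where E18 cells had 2.21 RPM and none of 9 cells exceeded 10 RPM. In type 1 INs at P5 a single cell of set B at 387 RPM held 59.6% of the read pairs. The Daglb fold of type 1 INs at P5 was 2.82 and turned to -0.43 within set D, and the fold of type 2 INs was -1.62 and turned to 1.57 within set D.

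Dagla, the lipase that makes most 2-AG in the adult brain, lies on chromosome 19 (10245265 to 10304877, minus strand). Its reads were sparse. It was at 2.01 RPM at E18, 0.72 RPM in type 1 at P2 and 0.02 RPM in type 3 at P2, and the 31 type 2 cells at P2 had no Dagla read pair, which allows up to 0.0098 RPM. At P5 it was at 0.003 RPM in type 1 from 1 read pair, 3.97 RPM in type 2 and 2.17 RPM in type 3. Only 7 cells exceeded 10 RPM over all ages, and the highest of all, at 145.6 RPM, was an E18 cell. In type 2 INs at P5 78.7% of the Dagla read pairs came from 1 cell at 57.2 RPM, which is among the 3 cells with Gfap and Aldoc and had 740 RPM of Gfap and 6320 RPM of Aldoc. Without those 3 cells Dagla in type 2 was at 1.01 RPM, and its fold against the other types was 0.22 in place of 1.53.

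Napepld, on chromosome 5 (21662901 to 21701396, minus strand), was at 4.75 RPM at E18 and between 0.04 and 2.42 RPM in the 6 postnatal groups. It exceeded 10 RPM in 2 E18 cells, at 196.8 and 126.3 RPM, 1 type 2 cell at P2, at 68.2 RPM, and 2 type 1 cells at P5, at 29.6 and 19.5 RPM. The 19 type 2 cells at P5, in which Cnr1 was highest, reached at most 0.28 RPM, so a share of up to 15.8% is allowed by 3 cells (17.6% by the exact interval).

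**Figure D4:**
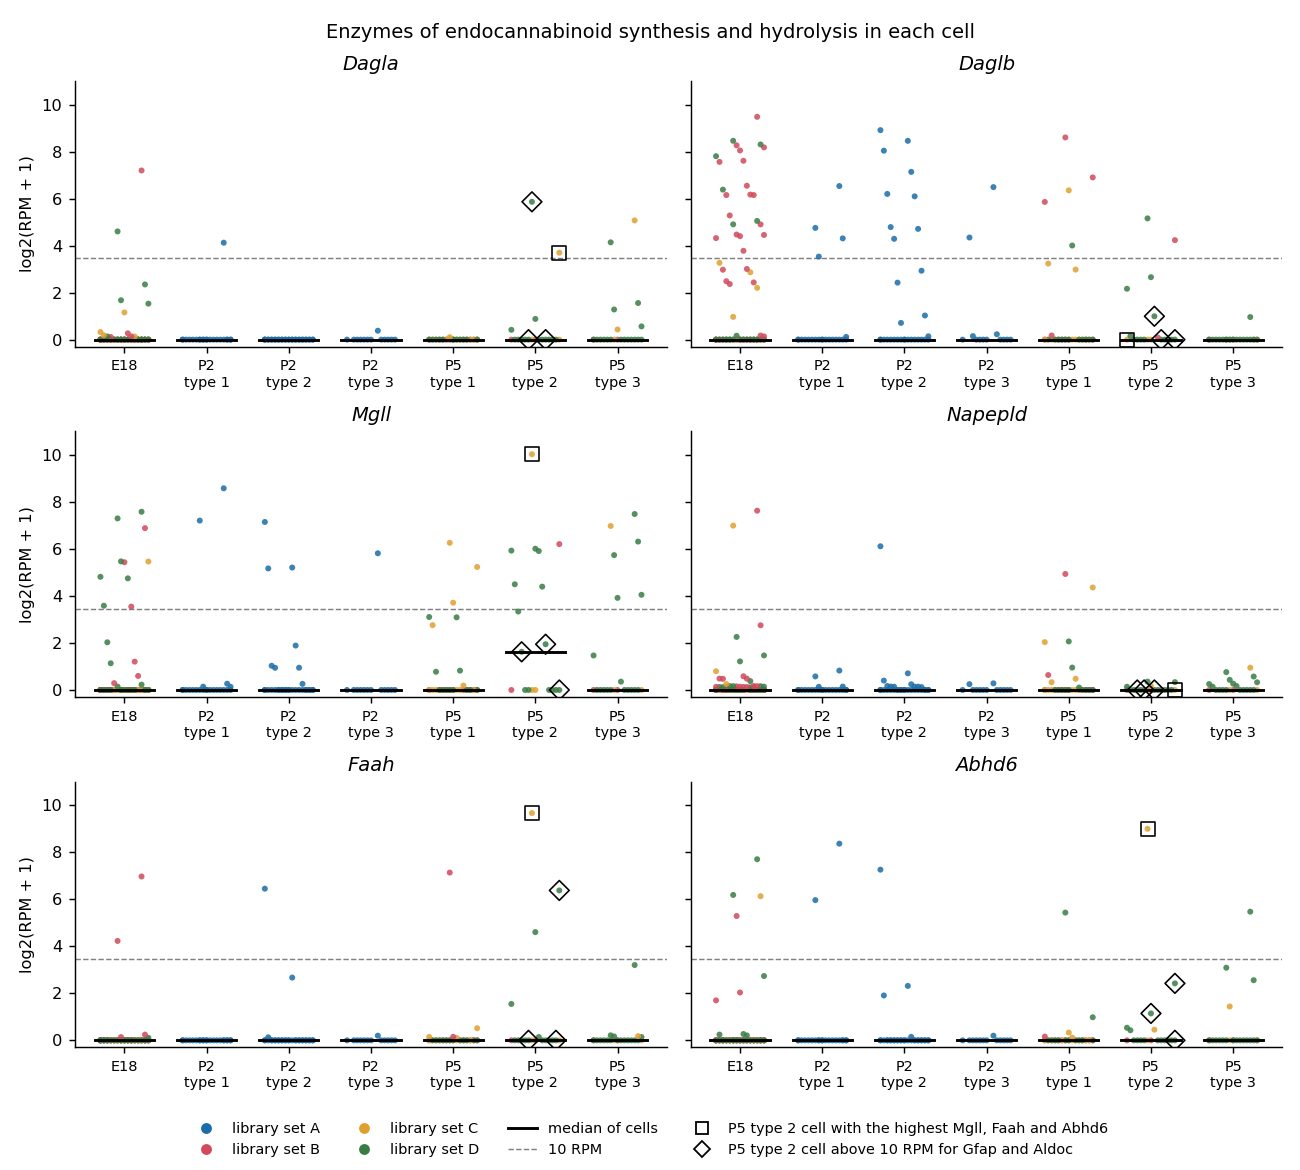
The 3 synthesis genes (Dagla, Daglb, Napepld) and 3 hydrolase genes (Mgll, Faah, Abhd6) as log2(RPM + 1) in each cell by age and type, with the library set as colour, the group median as a bar and 10 RPM as a dashed line. The square marks the type 2 cell at P5 with the highest Mgll, Faah and Abhd6 (1044, 813 and 509.9 RPM), and diamonds mark the 3 type 2 cells with Gfap and Aldoc.

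Among the hydrolases, Mgll was the most frequent. It lies on chromosome 6 (88724412 to 88828360, plus strand) and shares a short stretch of exon with the antisense gene Gm26588. Mgll exceeded 10 RPM in 10 of 82 cells at E18, in 2 of 22, 3 of 31 and 1 of 13 cells of types 1, 2 and 3 at P2, and in 3 of 34, 7 of 19 and 6 of 22 cells at P5. Its share in type 2 INs at P5 was 36.8% (16.3 to 61.6%) and in type 1 INs 8.82% (1.86 to 23.7%), and these intervals overlap. The 7 type 2 cells at P5 include, at 72.8 RPM, the cell with oligodendrocyte lineage genes. The pooled levels were 7.21 RPM at E18, 27.9, 6.87 and 3.54 RPM at P2, and 4.96, 84.2 and 19.4 RPM at P5. The 84.2 RPM of type 2 came largely from 1 cell of set C at 1044 RPM, and without it the level was 15.9 RPM, against 13.8 RPM in type 3 without its own highest cell. The Mgll fold of type 2 at P5 was 2.98, and 0.65 without that cell.

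That same cell also carried the highest Faah and Abhd6. Faah, on chromosome 4 (115967145 to 116017926, minus strand), exceeded 10 RPM in 7 cells, of which 2 were at E18, 1 was of type 2 at P2, 1 of type 1 at P5 and 3 of type 2 at P5. In type 2 INs at P5 it had a pooled level of 59.5 RPM, but 90.9% of the read pairs came from the 1 cell at 813 RPM and the level was 5.81 RPM without it. The next cells were at 82.1 RPM, in the type 2 cell that also had the most Dagla and Aldoc, and at 23.3 RPM. The other groups lay between 0 read pairs in type 1 at P2, which allows up to 0.014 RPM, and 3.81 RPM in type 1 at P5. Abhd6, on chromosome 14 (8002902 to 8056763, plus strand), was at 34.3 RPM in type 2 at P5 from that cell at 509.9 RPM, and at 0.39 RPM without it. It exceeded 10 RPM in 10 cells over all ages. In type 1 INs at P2, where it was at 21.1 RPM, 1 cell at 329 RPM held 85.9% of the read pairs and had the highest Mgll of its group as well, at 382 RPM.

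The cell with the 3 highest hydrolases was at 93.1 RPM for Cnr1, 16.6 RPM for Cnrip1 and 12.0 RPM for Dagla. It had 4 of the 6 interneuron genes above 10 RPM, and Gfap, Aldoc, Aqp4 and Olig1 were at 0 in it. Its Cnr1 level was below the type 2 median, whereas its Mgll was higher than in any other cell of the 3 ages. Capture sites were inspected under a microscope for single cells, per the study's methods, and no doublet caller was run on the counts.

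The folds of the members are counted beside those of all genes. A gene was included when over 5% of the cells of the age passed 10 RPM, and it counts as higher or lower when its pooled log2 fold is past 1. Cnr1, Cnrip1, Daglb and Mgll passed at P2, and Dagla and Faah in addition at P5, while Napepld and Abhd6 passed at neither age. A gene that is high in 1 type can pass through that type alone, so these counts are a description. At P2, 1 of 4 was higher in type 1 INs (Mgll, with 0.21 in place of 2.01 without the highest type 1 cell), where 19.4% of 8400 genes were, and 2 were lower (Cnr1 and Daglb), where 31.9% were. For type 2 INs, 2 were higher (Cnr1 and Daglb), against 28.1% of all genes, and 1 was lower (Mgll), against 19.9%, which became 0.12 once the highest cell among the other types was left out. In type 3 INs none was higher, against 16.0%, and all 4 that passed were lower, against 53.4%. Of these, Mgll was at -0.82 without that same reference cell, and with DESeq2 size factors Cnr1, Cnrip1 and Daglb were at -0.54, -0.84 and -0.86, not past 1.

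At P5, where 9675 genes were compared, 1 of 6 was higher in type 1 INs (Daglb, against 23.6% of all genes) and 4 were lower (Cnr1, Dagla, Mgll and Faah, against 23.7%), of which Faah became 0.20 once the highest cell among the other types was left out. For type 2 INs, 4 were higher (Cnr1, Dagla, Mgll and Faah, against 23.5%) and 1 was lower (Daglb, against 21.8%), at -0.49 without the highest reference cell. Of those 4, Cnr1 alone stayed past 1 without its highest type 2 cell, at 2.13. In type 3 INs none was higher, against 14.7%, and 3 were lower (Cnrip1, Daglb and Faah, against 45.7%). From E18 to P5, 3 of the 6 members that passed were higher (Cnr1, Mgll and Faah, against 13.5% of 10588 genes) and 1 was lower (Daglb, against 20.1%). Without the highest P5 cell the differences of Mgll and Faah were 0.58 and 0.69.

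Other receptors for these lipids were scarce. Cnr2, which encodes the second cannabinoid receptor, was at 1.90 to 5.91 RPM in the 7 groups and exceeded 10 RPM in 10 cells, with a highest cell at 47.4 RPM. Gpr55 and Gpr119, lipid receptors, had 1 read pair each in all cells together. Gpr18, and Trpv1, the channel opened by capsaicin and by anandamide, had none, which allows up to 0.0014 RPM over all cells. Of these 6 receptors Cnr1 had the highest level in each group, in RPM and per kb of exon.

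Of a wider list of 59 genes around CB1 signalling, 32 passed the filter at P2 and 36 at P5. For type 2 INs, 13 of 32 were higher (28.1% of all genes) and 6 lower (19.9%) at P2, and 10 of 36 were higher (23.5%) and 7 lower (21.8%) at P5, with a median fold of 0.74 at P2 and 0.39 at P5 against 0.19 and 0.03 over all genes. In type 1 INs 6 were higher (19.4% of all genes) and 16 lower (31.9%) at P2, and 9 were higher (23.6%) and 13 lower (23.7%) at P5, with a median of -1.12 and -0.39 against -0.25 and 0.04 over all genes. In type 3 INs 4 were higher (16.0%) and 18 lower (53.4%) at P2, and 7 were higher (14.7%) and 12 lower (45.7%) at P5, with a median of -1.13 and -0.36 against -1.26 and -0.78. From E18 to P5, 10 of 37 were higher (13.5%) and none lower (20.1%), with a median of -0.09 against -0.15.

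Of the wider list, 30 genes passed the filter at both ages, and 3 of them were higher in type 2 INs at both, where 8.06% of 7739 genes were. Gnai3, an inhibitory G protein α subunit to which CB1 couples, was at 94.8 RPM at P2 and 135.3 RPM at P5, against 29.2 and 31.9 RPM in the other types. Gnb1, a G protein β subunit, was at 3961 and 5248 RPM against 1942 and 2367 RPM. Cck, the gene for cholecystokinin, was at 67.2 and 11.0 RPM against 25.7 and 1.27 RPM, but at P5 only 2 of 19 type 2 cells exceeded 10 RPM and the level was 0.74 RPM without the highest. Gnai2, a related α subunit, went the other way, with 20.6 and 7.77 RPM in type 2 INs against 54.8 and 66.8 RPM. Arrb1, a β-arrestin, and Plcg1, a phospholipase C, were likewise lower in type 2 and higher in type 1 INs at both ages, as Gnai2 was. These 3 stand against 4.86% of all genes lower in type 2 at both ages. The Arrb1 level rested on few cells, since 2 of 22 and 5 of 34 type 1 cells exceeded 10 RPM against 6 of 31 and 5 of 19 type 2 cells, so its share of cells was larger in type 2. For Plcg1 at P5 the shares were alike, with 26.3% of type 2 cells above 10 RPM against 25% of the others. Plcb4, another phospholipase C, was higher in type 1 INs at both ages, at 71.6 and 167.3 RPM against 6.65 and 82.4 RPM. Its fold at P5 was only just past the limit, at 1.01. With Gnai2, Arrb1 and Plcg1 it makes 4 such genes, against 5.98% of all genes.

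The receptors that drive 2-AG synthesis were low in type 1 INs. Grm5, a metabotropic glutamate receptor whose activation leads to 2-AG release, was at 0.0090 RPM in type 1 at P2 and 6.30 RPM at P5, against 73.6 and 116.2 RPM in the other types. Chrm3, a muscarinic receptor, had 0 read pairs in type 1 INs at P2 and 0.04 RPM at P5, and it was higher in type 3 INs at both ages, at 12.2 and 32.3 RPM against 4.30 and 7.39 RPM, although the P2 level was 2.77 RPM without its highest cell. Wasf1, a regulator of actin, and the chemokine gene Cxcl14 were higher in type 3 INs and lower in type 1 INs at both ages. With Chrm3 they are 3 of 30 genes higher in type 3 at both ages, against 2.77% of all genes. At P5 Cxcl14 was also higher in type 2 INs, and its type 3 level at P2 (33.8 RPM) was 1.32 RPM without the highest cell.

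A list of 9 genes was drawn up around basket cells with CB1. It does not stand for 1 cell type, as the paper describes RELN and VIP as marking largely separate Htr3a-GFP+ subtypes. Vip and Reln were, with Cck and Cxcl14, lower in type 1 INs at both ages. In all, 8 of the 30 wider-list genes were so, against 9.39% of all genes. Vip and Reln were higher in type 2 and lower in type 3 INs at P2, but higher in type 3 INs at P5. Reln, which encodes a secreted matrix protein, was at 41.3 RPM at P2 and 65.9 RPM at P5 in type 1 against 643.5 and 788 RPM in the others. Vip, a neuropeptide gene, was above 10 RPM in 11 cells, with a highest cell at 1878 RPM. Sncg, a marker of these basket cells in the adult, had no read pair in any cell. The remaining genes past 1 in type 3 INs at both ages were lower there, among them Gnao1, Gng2, Gna11, Gdpd1 and Scp2, which makes 8 of 30, against 27.9% of all genes.

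The genes most like Cnr1 were found by Pearson correlation of log2(RPM + 1) over the P2 and P5 cells together. Compared were the 2763 genes that passed 10 RPM in 25% or more of those cells. The correlation is a description, as the cells come from pooled animals and share types. The 5 highest were Nr2f2 (r = 0.53), Chl1 (0.51), Sema3c (0.50), Npas3 (0.49) and Fam3c (0.47), against a median r of 0.05 over all genes compared. Nr2f2 and Npas3 encode transcription factors, Chl1 an adhesion molecule and Sema3c a secreted guidance molecule. Nr2f2 exceeded 10 RPM in 22 of 31 type 2 cells at P2 and 14 of 19 at P5, in 10 of 13 and 19 of 22 type 3 cells, and in 5 of 22 and 13 of 34 type 1 cells. Its pooled level at P5 was 270.3 RPM in type 3 and 230.4 RPM in type 2 INs. Its correlation with Cnr1 was 0.65 over P2 cells and 0.37 over P5 cells. Among type 2 cells alone it was 0.59 over the 31 at P2 and -0.13 over the 19 at P5. Sema3c had r = 0.36 over P2 and 0.64 over P5 cells, so that the likeness differed between ages.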

How the data were processed

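RNA of single cells captured on a microfluidic chip was amplified and tagged with kits that do not mark strand, without molecular identifiers. The authors used TopHat for alignment to GRCm38 and deposited read pair counts per gene and cell (HTSeq 0.6.1, per the submitters' processing notes), with a coefficient per cell. How multiply mapped reads were treated is not given in the sources used here. RPM is the count times the coefficient, and its inverse gives mapped read pairs. All columns of cells were used. A GENCODE annotation of GRCm38 named 42462 of 43629 identifiers and gave positions and exon lengths. A fold is the log2 ratio of 2 pooled levels after adding 1 RPM to each. Intervals are exact, at 95%, and a count of 0 allows 3 read pairs or 3 cells. Cells are not replicates, so no p-value was computed. Genes named are the members, wider-list genes past 1 at both ages in the same type, all 5 other receptors, and the 5 genes most like Cnr1. Sncg, Htr3a, markers of cell types and genes that overlap members are named in addition. The members and lists were chosen with earlier results of these data known. Alternatives changed the pseudocount, threshold, depth, library size (total count, edgeR 4.0.16 TMM, DESeq2 1.42.0 size factors), averaging, single cells, library sets and cells with glial, excitatory or MGE genes, the last chosen after seeing the data. Fold scripts were tested on simulated data. Software was R 4.3.3 and Python 3.11.15 with pandas 2.3.3, scipy 1.17.1, numpy 2.4.6 and matplotlib 3.10.9.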

Additional observations from a re-analysis of the deposited data

Results flagged for a closer look

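Daglb and Mgll had folds past 1 of opposite sign at P2 and P5 in the same type. The difference between the ages was not tested, as each group counts as 1 sample, and as P2 cells are all in set A and P5 cells in the other sets, age cannot be told apart from library set. In type 1 INs Daglb went from -2.27 at P2 to 2.82 at P5, a difference of 5.09. In type 2 INs it went from 2.46 to -1.62, a difference of -4.08. Without the highest cell on both sides of each contrast the signs were kept, at -3.02 and 2.30 in type 1 and 2.72 and -1.32 in type 2. Within set D, however, which holds 43 of the 75 P5 cells, the P5 values of Daglb were -0.43 in type 1 and 1.57 in type 2, and as a difference of mean log2(RPM + 1) the type 2 value was 0.12, so the opposite sign at P5 was lost there. Mgll in type 1 INs went from 2.01 at P2 to -3.18 at P5, a difference of -5.19, and in type 2 INs from -1.50 to 2.98, a difference of 4.48. Without the highest cells the Mgll values were 1.10 and -2.45 in type 1 and -0.98 and 0.94 in type 2, so in type 2 neither was past 1, and as a difference of mean log2(RPM + 1) the P2 value was 0.10 in both types. Without the highest type 1 cell alone the P2 value of Mgll in type 1 was 0.21, and without the highest reference cell alone the P5 value of Daglb in type 2 was -0.49, so neither stayed past 1.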

How the results depend on the processing

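Of 90 values of the 7 Cnr1 folds past 1 under the alternatives, 87 kept their sign and 83 of these stayed past 1. The 3 that reversed were all within library set B, which has 2 type 2 cells at P5: -1.70 for type 2 against the other types, -4.37 for type 2 against E18 and -2.84 for all P5 cells against E18. The type 2 fold at P2 (2.45) was 2.44 with a pseudocount of 10 RPM, 2.30 with total counts, 2.10 with TMM, 1.98 with DESeq2 size factors, 2.50 with equal weight of cells, 4.67 as a difference of mean log2(RPM + 1), 2.33 without the highest type 2 cell, 3.04 without the highest reference cell and 2.61 without the cells with MGE genes. At P5 (2.41) these were 2.40, 2.08, 2.22, 2.30, 2.47, 2.53, 2.13 and 2.55, then 2.17 in set C (resting on 1 cell at 3003 RPM), 2.06 in set D, 2.65 without the Gfap and Aldoc cells and 2.73 without these and the oligodendrocyte lineage cell. For type 2 at P5 against E18 (2.52) they were 2.50, 2.48, 2.68, 2.85, 2.60, 4.39, 2.24 and 2.64, then 1.91, 3.35, 2.76 and 2.83, with 2.39 without E18 cells with excitatory neuron genes and 2.32 without those with MGE genes. The share of type 2 cells at P2 with Cnr1 was 93.5% when 1 read pair sufficed in place of 10 RPM (80.6%), and those of types 1 and 3 went from 36.4 and 61.5% to 100%, which turned the order of the types.

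Of 272 values of the 21 folds of other members past 1, 261 kept their sign and 224 of these stayed past 1. Values within 1 library set reversed Cnrip1 in type 3 at P5 (2.00, set B), Daglb in types 1 and 2 at P5 (-0.43 and 1.57, set D) and from E18 to P5 (0.97, set C), Mgll from E18 to P5 (-0.42, set D) and Faah in types 1 and 2 at P5 (3.68 and -3.51, set B). The mean of log2(RPM + 1) reversed Daglb in type 2 at P5 (0.12) and Mgll in type 2 at P2 (0.10). Leaving out the highest reference cell reversed Mgll in type 2 at P2 (0.12) and Faah in type 1 at P5 (0.20). The cause was not tested. Of the 5 genes most like Cnr1, 4 remained with Spearman correlation and 2 with P2 or P5 cells alone. No paired analysis was possible because each group counts as 1 sample and no replicate number is shared, and values within library sets stand in its place. After each cell was thinned to 1 common depth of mapped read pairs, 56 of 56 shares lay within their wide intervals. Thinning did not equalise the read pairs on genes, which were fewer in type 3 INs, and their part was not tested.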
